A study of Mus musculus with 9 samples.

Results

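RAS regulators, adaptors and RASopathy genes were followed here as a set of 38 genes in mouse hippocampus, listed by name for their known place in the RAS pathway, with earlier results of these data known. All 38 were in the table of 18275 genes, and all 38 passed the minimum mean of 10 that left 16196 genes for testing. They fall into 7 roles: 9 RAS-family GTPases, 6 nucleotide exchange factors, 6 GTPase-activating proteins, 2 ubiquitin ligase components, 7 receptor adaptors and docking proteins, 3 genes of SHP2 and the SHOC2 complex, and 5 kinases that ERK activates. RNA-seq had been made from hippocampus of 4 Nestin;BrafKE/+ mice (mutant below) and 5 Braf+/+ littermates (control below), all male, C57BL/6N and 11 to 15 weeks old. The KE allele encodes BRAF K499E, a variant found in cardio-facio-cutaneous syndrome, and was knocked into the mouse's own Braf locus so that wild-type BRAF is made until Cre removes a floxed cassette. Nestin-Cre acts in neural stem cells, so that both neurons and glia descend from recombined cells, and each mutant mouse keeps 1 wild-type Braf allele. Whether the control mice carried Nestin-Cre is not given in the sources used here.

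RAS proteins are small GTPases that switch signalling on when they hold GTP and off when they hold GDP. Activated receptor tyrosine kinases recruit adaptors such as GRB2, which bring the exchange factor SOS to the membrane, where it loads RAS with GTP. Neurons also use calcium-responsive exchange factors of the RASGRF and RASGRP families, and GTPase-activating proteins such as neurofibromin return RAS to its GDP form. RAS-GTP recruits RAF kinases, BRAF among them, which phosphorylate MEK and through it ERK, so that most of these 38 proteins stand upstream of the mutated kinase or beside it, and only the last role lies below ERK. Germline variants in many of these genes cause the RASopathies, a family of developmental syndromes that share facial, cardiac and cognitive features.

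Values are normalised signals, which are read numbers per gene that the authors adjusted for batch and scaled between libraries. They summed to between 19551000 and 20092000 per library, and since all libraries were scaled to nearly the same total, the original sequencing depth is unknown. The library names carry 4 prefixes (84, 85, HPC and NES), which were grouped here into 3 series. Series A joins 84 (control replicates 1 and 2) and 85 (mutant replicate 1 and control replicate 3), a merger that no label gives. It thus holds 1 mutant and 3 control libraries, with 2 and 1 in series B (HPC), and 1 and 1 in series C (NES). Differences are log2(signal + 1) of mutant minus control, estimated by limma with the series as a second term, and adjusted p-values are Benjamini-Hochberg values over all 16196 genes. The markers of hippocampal excitatory neurons were present in every library, with summed signals of 131896 to 166838. Braf had a signal of 2264 ± 144 in mutants and 2786 ± 153 in controls (SD, n = 4 and 5; log2 difference -0.30, SE 0.065, adjusted p = 0.0378), a total over both alleles that cannot show the mutated base. By series the Braf difference was -0.13 (A), -0.48 (B) and -0.31 (C), and fits under other settings are not given for it. By immunoblot, a measure of protein and not RNA, the study found hippocampal BRAF not significantly changed in this genotype. Dusp6, the ERK phosphatase that ERK itself induces, was at 1999.6 ± 84.9 against 1009 ± 81.6 (log2 difference 0.99, adjusted p = 0.000325).

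Most of the 38 genes differed little between the genotypes. Shc3, a neuronal adaptor of receptor tyrosine kinases, rose by 0.56 on the log2 scale, and Rasgrf2, a calcium-responsive exchange factor, fell by 0.30. These 2 genes, 5.26% of the set, passed an adjusted p of 0.05 in limma, beside 2.88% of all genes tested (1.52% higher and 1.36% lower). At an unadjusted p of 0.05, limma passed 11 members (28.9%), 3 of them higher and 8 lower in mutants, beside 18.5% of all genes tested (8.86% higher and 9.61% lower). The mutant and control libraries did not overlap in 11 members (28.9%), 4 of them higher (Rras, Rasa2, Shc3 and Frs2) and 7 lower (Rras2, Rap1b, Sos1, Rasgrf2, Rasal1, Ppp1cb and Rps6ka2), beside 15.7% of all genes tested (7.62% higher and 8.13% lower). No test was made of the distance between these shares. The same shares of all genes are the background for the counts by role and by marker list below, which come from few genes each. The number of calls depended on the series term: without it limma called 9 members, adding Rras2, Rap1b, Sos1, Rasal1, Frs2, Ppp1cb and Rps6ka2, beside 14.0% of all genes tested. With the 4 name prefixes in its place, limma called only Shc3 of the members, beside 165 of all genes tested. Leaving out mutant replicate 1, the only mutant of series A, left no member called in limma, beside 42 of all genes tested. In that fit 6 members had an unadjusted p under 0.05, beside 2514 of all 16196 genes. In direction the set was balanced: 18 members were higher and 20 lower in mutants, with a median log2 difference of -0.01 and a range of -0.30 to 0.56. The median size of the difference, regardless of sign, was 0.11 for the members and 0.12 for all genes tested, and 15 members (39.5%) had the same sign in all 3 series, against 36.6% of all genes.

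The 95% confidence interval of the difference lay within 0.5 of zero on the log2 scale for 35 of the 36 members without a call, the exception being Rasgrp2, and within 0.3 for 19 members. These are bulk libraries, in which fewer cells of a type and less RNA per cell cannot be told apart. Per the study's methods each library came from a different mouse, so the p-values measure the spread between mice together with that of preparation.

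**Figure D1:**
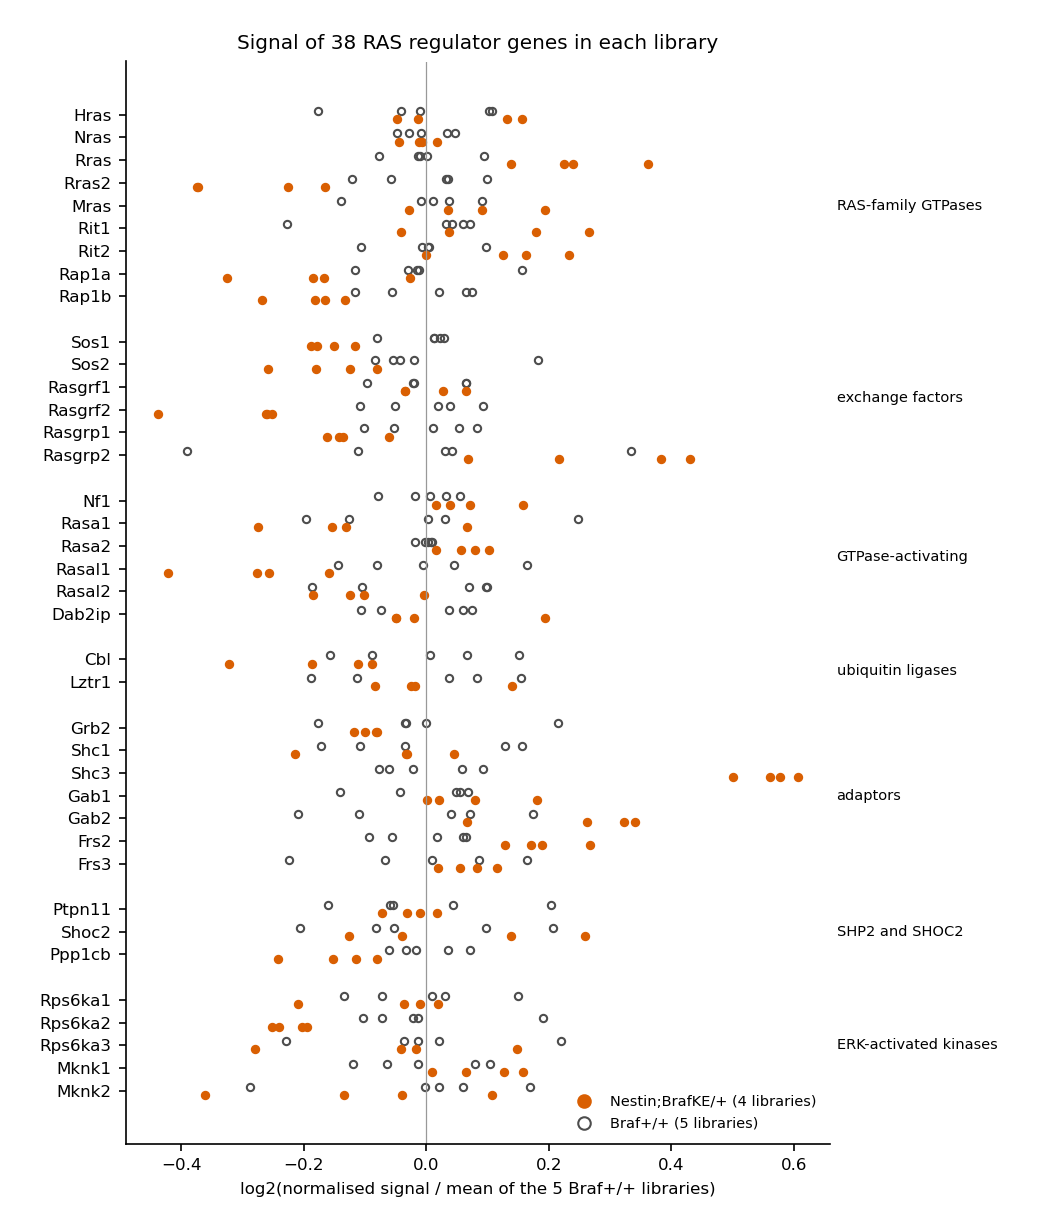
Normalised signal of each of the 38 members in each of the 9 libraries, drawn on the horizontal axis as log2 of the signal over the mean of the 5 control libraries; rows are genes ordered by role, filled points are the 4 mutant and open points the 5 control libraries. In the Shc3 row all 4 mutant points stand well to the right of the controls, and in 27 rows the 2 genotypes overlap.

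**Figure D2:**
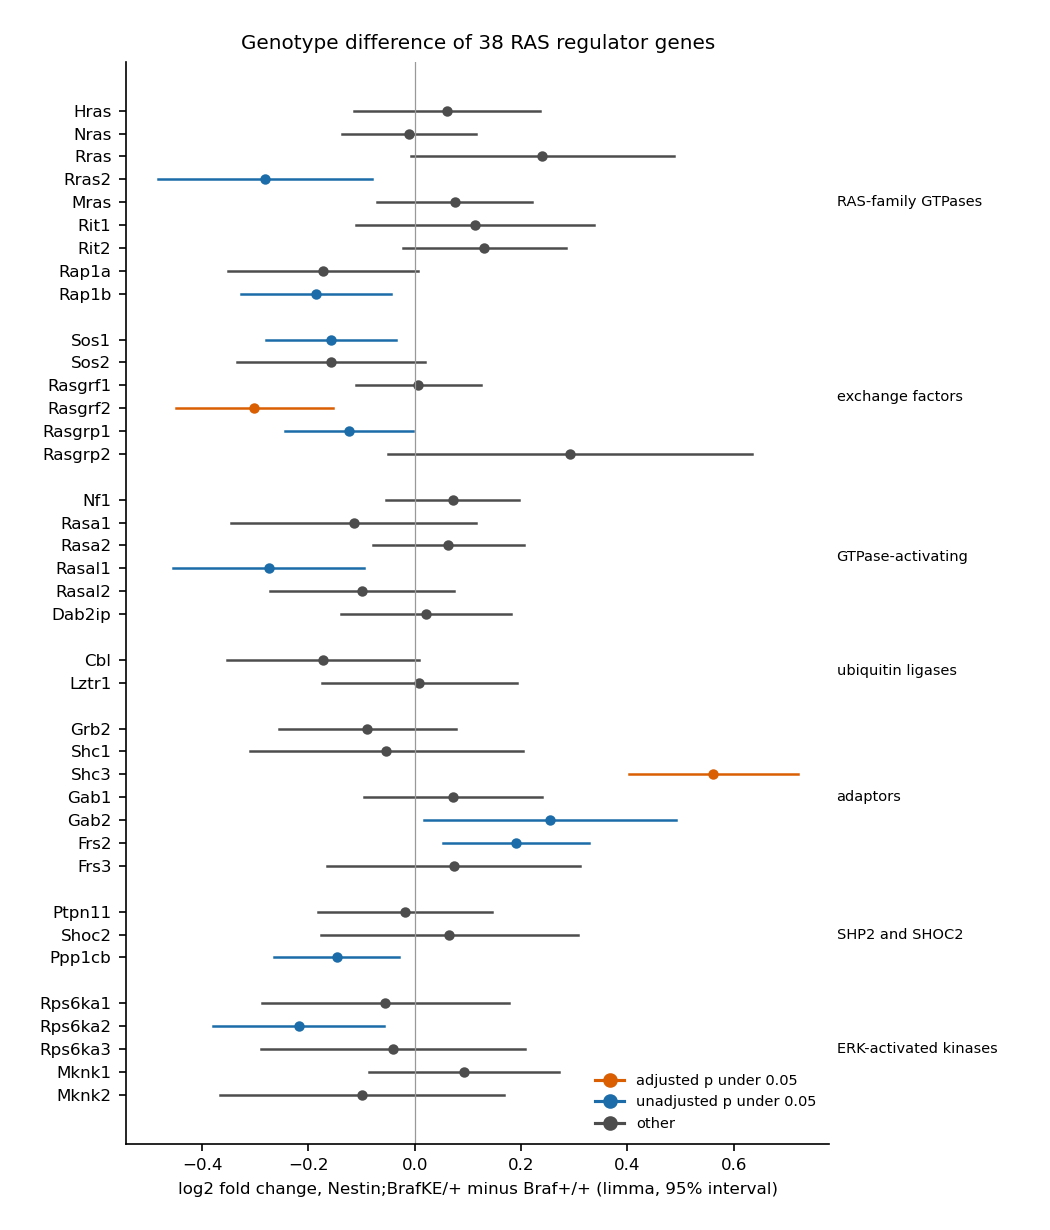
Log2 difference of each member, mutant minus control, from limma with the series as a second term; points are estimates coloured by whether the adjusted or the unadjusted p was under 0.05, bars are 95% confidence intervals, and roles are named at the right. Shc3 at 0.56 and Rasgrf2 at -0.30 carry the adjusted calls, and most other intervals cross zero.

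Per kilobase of merged exons, the exchange factor Rasgrp1 had the highest control signal of the set (1823 ± 95.1 per kb; SD, n = 5), followed by Rasgrf1 (828 ± 39.0). The lowest were Frs3 (31.4 ± 3.19) and Rasgrp2 (18.8 ± 3.39), so the members spanned about 2 orders of magnitude. Within each role the leader was Mras among GTPases, Rasgrp1 among exchange factors, Dab2ip among GTPase-activating proteins, Lztr1 among ubiquitin ligase components, Grb2 among adaptors, Ppp1cb in the SHP2 and SHOC2 role, and Mknk2 among ERK-activated kinases. Neighbours in a role that lay less than 1 SD apart in the controls were Rasa1 and Nf1, Rit1 and Rras, and Shc1 and Shc3. Dividing by the longest annotated transcript in place of merged exons kept 33 of the 38 ranks within the roles and placed Rps6ka2 first among the kinases. Shc3 was among the lowest members per length in controls (37.5 ± 1.94 per kb) and reached 55.3 ± 1.68 per kb in mutants (SD, n = 4).

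**Figure D3:**
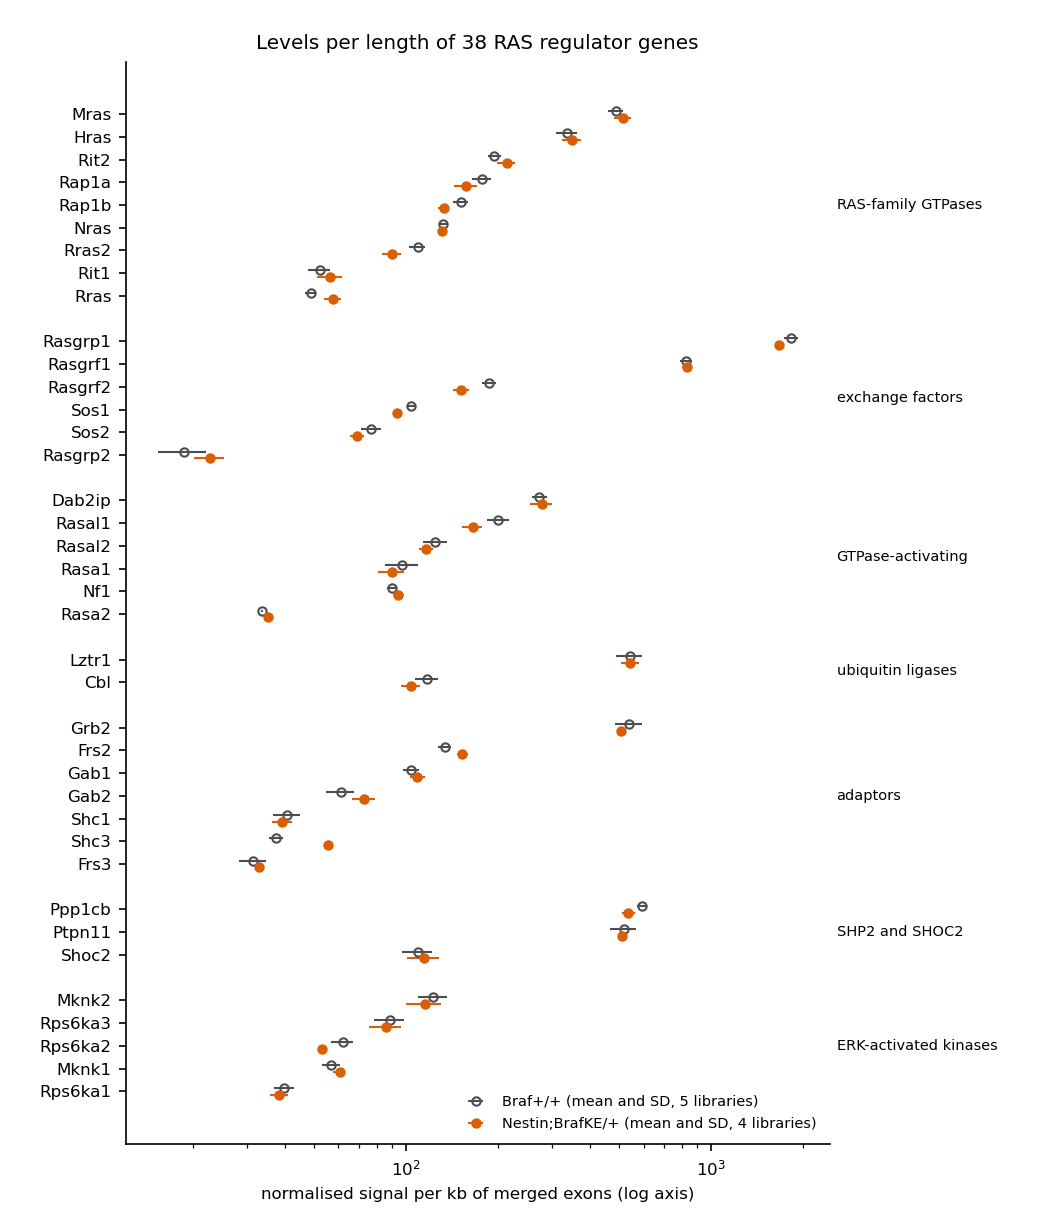
Mean normalised signal per kilobase of merged exons for each member, by role, on a log axis, with mutant and control means and SD bars over 4 and 5 libraries. Rasgrp1 and Rasgrf1 stand at the top with control means of 1823 and 828, and Rasgrp2 at the bottom with 18.8.

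The receptor adaptors and docking proteins link activated receptors to SOS and to the phosphatase SHP2. Of these 7 genes, 5 were higher and 2 lower in mutants, 3 had an unadjusted p under 0.05, all higher, and 1 passed the adjusted threshold. Shc3 encodes ShcC, an SHC-family adaptor made mainly in neurons that binds phosphorylated receptors such as TRKB and recruits GRB2. Its signals were 736, 759, 744 and 706 in mutant replicates 1 to 4 and 532, 491, 473, 478 and 519 in control replicates 1 to 5. Every mutant library was above every control, and the lowest mutant and the highest control lay further apart than the SD of either group. The means were 736 ± 22.3 and 499 ± 25.8 (SD, n = 4 and 5), a log2 difference of 0.56 (SE 0.072, 95% interval 0.40 to 0.72, adjusted p = 0.00413 by limma). Taken series by series, Shc3 differed by 0.56 (A), 0.65 (B) and 0.44 (C). These differences come from the libraries that made the call, so their like signs are no separate evidence. An exact permutation test, two-sided, gave 0.00794 over all 126 assignments of the genotypes and 0.0417 over the 24 within series, in each case the smallest p possible. The uncalled Rras, Rras2, Rasa2, Frs2 and Ppp1cb reached the same values, so this test does not set Shc3 apart from them. Without mutant replicate 1, the only mutant of series A, the adjusted p of Shc3 in limma rose to 0.0554. Over all fits that left out 1 library, its log2 difference lay between 0.51 and 0.60. Shc3 lies on chromosome 13, 51577429 to 51723523, minus strand (GRCm39), with no annotated gene overlapping it, and 2.45% of its 31-base exon words also occur in other genes.

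Frs2, the docking protein of FGF and neurotrophin receptors, was at 1518, 1438, 1419 and 1379 in mutants and 1181, 1318, 1213, 1276 and 1314 in controls. The groups did not overlap, with every mutant library above every control, but the difference did not pass the adjusted threshold (log2 0.19, SE 0.062, unadjusted p = 0.0110, adjusted p = 0.135). By series it was 0.30, 0.16 and 0.069 in A, B and C. Gab2, a docking protein that binds SHP2 and the p85 subunit of PI3-kinase, was at 487, 467, 493 and 408 in mutants and 337, 409, 400.2, 361 and 439 in controls. These ranges overlapped, the log2 difference was 0.25 (SE 0.11, unadjusted p = 0.0382, adjusted p = 0.240), and its sign turned in series C (0.35, 0.41 and -0.11 in A, B and C). Grb2, the adaptor that carries SOS and the leader of the role per length, was at 2693, 2764, 2760.4 and 2727 in mutants and 3391, 2850.4, 2585, 2856 and 2921 in controls. The mutant libraries fell inside the control range, which was much the wider (log2 -0.089, 95% interval -0.26 to 0.077, adjusted p = 0.571), and 10.1% of the 31-base words of Grb2 occur in other genes. Shc1, the SHC adaptor found in most tissues, Gab1 and Frs3 had log2 differences of -0.053, 0.072 and 0.074, with adjusted p-values of 0.849, 0.656 and 0.762. The second SHC-family member on the list thus had a 95% interval of -0.31 to 0.20, below that of Shc3, although 9.76% of the 31-base words of Shc1 occur elsewhere, mostly in Gm5500.

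The 6 exchange factors load GTPases of the RAS family with GTP: Sos1 and Sos2 downstream of receptors, Rasgrf1 and Rasgrf2 after calcium and calmodulin binding, Rasgrp1 after calcium and diacylglycerol, and Rasgrp2 after calcium, with RAP1 as its main substrate. In mutants 2 were higher and 4 lower, 3 had an unadjusted p under 0.05, all lower, and Rasgrf2 passed the adjusted threshold. The signals of Rasgrf2 were 1587, 1404, 1585 and 1596 in mutant replicates 1 to 4 and 1928, 1952, 1764, 2028 and 1835 in control replicates 1 to 5. No mutant library reached the lowest control, and mutant replicate 2 stood far below the other mutants. The means were 1543 ± 93.1 and 1901 ± 103 (SD, n = 4 and 5), a log2 difference of -0.30 (SE 0.067, 95% interval -0.45 to -0.15, adjusted p = 0.0418 by limma). Rasgrf2 differed by -0.24 in series A, by -0.44 in B and by -0.20 in C, which is no separate evidence either. The exact permutation p, two-sided, was 0.00794 over all assignments and 0.0417 within series. These are again the smallest possible values, which the uncalled members named beside Shc3 also reached. This call lay close to the threshold: it was lost in 8 of the 9 fits that left out 1 library, all but the one without control replicate 3, with log2 differences of -0.34 to -0.23 and adjusted p-values of 0.0397 to 0.225 in limma. These fits are not all separate checks. Those without mutant replicate 4 and without control replicate 5 both drop series C from the difference, and both gave -0.34. With all 9 libraries kept, the Rasgrf2 call was also lost in limma with the 4 name prefixes in place of the series (adjusted p = 0.111). The same held with array quality weights (adjusted p = 0.0834), and with the replicate block and the series (adjusted p = 0.531).

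Rasgrf2 lies on chromosome 13, 92027891 to 92269375, minus strand (GRCm39), with Gm60550 on the other strand. Rasgrf1, the paralogue with the same domain layout, was at 9942, 10659, 9943 and 10377 in mutants and 10655, 10657, 9526, 10047 and 10034 in controls, ranges that overlapped almost fully. Its log2 difference was 0.0068 (SE 0.053, 95% interval -0.11 to 0.12, adjusted p = 0.963), an interval that lies above the one of Rasgrf2. A test of the difference between the paralogues was not run. The start-site windows of both paralogues are shown because Rasgrf2 carries the only call among the exchange factors and Rasgrf1 is its nearest relative on the list. Each runs from 250 bases before to 50 after the annotated start, taken from RefSeq on GRCm38.p6, and capitals mark matches on either strand to the searched motifs E-box (CACGTG), CRE half-site (TGACG), AP-1 (TGANTCA), GC box (GGGCGG) and ETS (CCGGAA).
Rasgrf2, chr13:92131779-92132078, minus strand: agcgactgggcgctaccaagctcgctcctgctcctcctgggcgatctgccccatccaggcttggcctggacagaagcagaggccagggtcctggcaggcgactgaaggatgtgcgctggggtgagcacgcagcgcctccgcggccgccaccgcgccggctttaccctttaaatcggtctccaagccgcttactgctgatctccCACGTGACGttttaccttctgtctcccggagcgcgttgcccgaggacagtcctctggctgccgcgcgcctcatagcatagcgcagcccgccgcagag
Rasgrf1, chr9:89909525-89909824, plus strand: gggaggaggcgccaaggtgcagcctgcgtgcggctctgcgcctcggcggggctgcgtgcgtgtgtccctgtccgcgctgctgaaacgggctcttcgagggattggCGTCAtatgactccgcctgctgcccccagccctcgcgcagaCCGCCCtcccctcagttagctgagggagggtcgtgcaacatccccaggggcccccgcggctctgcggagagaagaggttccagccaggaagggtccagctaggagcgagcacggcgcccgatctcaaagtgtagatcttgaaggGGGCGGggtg
The Rasgrf2 window holds 1 E-box whose last bases overlap a CRE half-site, and the Rasgrf1 window 1 CRE half-site and 2 GC boxes. Of all 32851 such windows, 7.15% hold the E-box, 20.8% the CRE half-site, 7.81% the AP-1 motif, 35.7% the GC box and 14.9% the ETS motif. These matches describe the letters only, and binding was not measured. Start-site windows were found for 32 of the 38 members.

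Sos1, the main receptor-coupled exchange factor and a Noonan syndrome gene, was at 1185, 1136, 1157 and 1128 in mutants and 1296, 1305, 1215, 1296 and 1311 in controls. All mutant libraries were below all controls by a small margin, with control replicate 3 nearest to them (log2 -0.16, SE 0.055, unadjusted p = 0.0159, adjusted p = 0.159), and the sign held in each series (-0.10, -0.18 and -0.22). Rasgrp1, the most abundant member per length, was at 10788, 10057, 10194 and 10237 in mutants and 11912, 10482, 10847, 11672 and 11333 in controls. Its groups overlapped, and the difference had an unadjusted p of 0.0439 and an adjusted p of 0.256 (log2 -0.12, SE 0.054). Sos2 had a log2 difference of -0.16 (adjusted p = 0.329). Rasgrp2, the lowest member per length, had the largest SE of the 38 genes, with a log2 difference of 0.29 and an interval of -0.050 to 0.64 (adjusted p = 0.354).

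**Figure D4:**
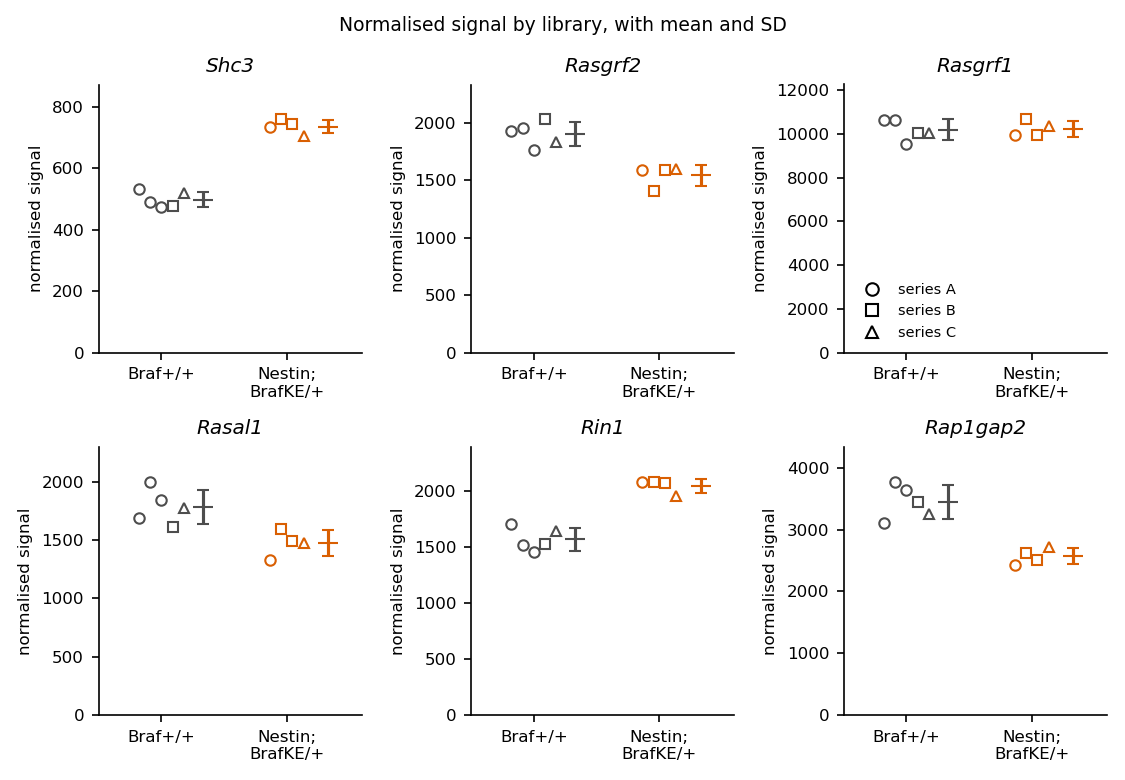
Normalised signal per library of Shc3, Rasgrf2, Rasgrf1, Rasal1, Rin1 and Rap1gap2, 1 panel each with its own axis; symbols are the 4 mutant and 5 control libraries, shaped by series, with the group mean and SD beside them. The groups are apart for every gene shown except Rasgrf1, whose mutant values of 9942 to 10659 lie within the control range of 9526 to 10657 or at its upper edge.

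The 9 RAS-family GTPases comprise the classical Hras and Nras, the related Rras, Rras2 and Mras, the neuronal Rit2 with Rit1, and Rap1a and Rap1b, which can activate BRAF. In mutants 5 were higher and 4 lower. None passed the adjusted threshold in limma, and 2 had an unadjusted p under 0.05, both lower. Rras2, which encodes TC21, was at 319, 354, 319 and 369 in mutants and 397, 443, 424, 423 and 380.3 in controls. The groups did not overlap (log2 -0.28, SE 0.091, unadjusted p = 0.0103, adjusted p = 0.132), and by series it was -0.40 (A), -0.33 (B) and -0.044 (C). Rap1b was at 1344, 1251, 1329 and 1374 in mutants and 1576, 1529, 1391, 1588 and 1450.2 in controls, again without overlap (log2 -0.19, SE 0.064, unadjusted p = 0.0149, adjusted p = 0.156). Its paralogue Rap1a had a log2 difference of -0.17 (adjusted p = 0.288) with opposite signs in series A (0.027) and B (-0.41), and 6.54% of its 31-base words occur in other genes.

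Mras, which joins SHOC2 and PP1 in the phosphatase complex that frees RAF from inhibition, led the GTPases per length. It was at 3604, 4202, 3912 and 3766 in mutants and 3701, 3912, 3651, 3335 and 3768 in controls, overlapping ranges with a log2 difference of 0.075 (SE 0.066, adjusted p = 0.591). Rras, an integrin regulator, was with Rit1 at the low end of the GTPases per length and had non-overlapping groups with the mutants higher (173 ± 11.2 against 146 ± 6.34; SD, n = 4 and 5), a nearly equal difference in each series (0.22, 0.26 and 0.24) and an adjusted p of 0.288. Hras, the Costello syndrome gene, had a log2 difference of 0.060 (95% interval -0.11 to 0.23, adjusted p = 0.733), and its sign differed between series (-0.032, 0.32 and -0.15). Nras was among the most even members, with a log2 difference of -0.011 and an interval of -0.14 to 0.11. Rit1, another Noonan syndrome gene, and Rit2 had log2 differences of 0.11 and 0.13 (adjusted p = 0.594 and 0.353).

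The 6 GTPase-activating proteins, the brakes of the cycle, were 3 higher and 3 lower in mutants. None passed the adjusted threshold in limma and 1 had an unadjusted p under 0.05. That gene, Rasal1, encodes a calcium-dependent RAS GTPase-activating protein and was at 1331, 1597, 1493 and 1473 in mutants and 1687, 1999, 1841, 1614 and 1778 in controls. The highest mutant, replicate 2, lay just below the lowest control, replicate 4, which belongs to the same series (log2 -0.27, SE 0.081, unadjusted p = 0.00625, adjusted p = 0.104). By series the difference was -0.47, -0.064 and -0.27 in A, B and C. Dab2ip, the leader of the role per length and also a scaffold of other kinase pathways, was at 2213, 2617, 2211 and 2258 in mutants and 2174, 2409, 2385, 2125 and 2349 in controls. Apart from mutant replicate 2 the libraries of both groups shared a range (log2 0.021, SE 0.072, adjusted p = 0.915). Nf1, the neurofibromatosis type 1 gene, had a log2 difference of 0.071 with an interval of -0.054 to 0.20 (adjusted p = 0.547). Rasa2 had non-overlapping groups with a log2 difference of 0.063 (adjusted p = 0.644): its 5 controls lay between 554 and 565. Rasa1, which encodes p120 RasGAP, and Rasal2 had log2 differences of -0.11 and -0.10 (adjusted p = 0.603 and 0.547).

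The 2 ubiquitin ligase components were not called in limma, neither at the adjusted nor at the unadjusted threshold. Lztr1, the substrate adaptor through which cullin-3 ligases mark RAS proteins for degradation, was at 3560.0, 3975, 3546 and 3403 in mutants and 4013, 3165, 3699, 3333 and 3819 in controls. The ranges overlapped (log2 0.0086, 95% interval -0.17 to 0.19, adjusted p = 0.969). Cbl, which ubiquitinates activated receptors, had a log2 difference of -0.17 (SE 0.082, adjusted p = 0.293).

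In the role of SHP2 and the SHOC2 complex 1 gene was higher and 2 were lower in mutants, none passed the adjusted threshold in limma, and 1 had an unadjusted p under 0.05. Ppp1cb, the catalytic PP1 subunit that dephosphorylates RAF with SHOC2 and MRAS, was at 5660.2, 6332, 6020.1 and 6181 in mutants and 6611, 7027, 6859, 6412 and 6543 in controls. All mutant libraries were below all controls (log2 -0.15, SE 0.053, unadjusted p = 0.0193, adjusted p = 0.173), with most of the difference in series A (-0.27, against -0.054 in B and -0.082 in C). Of its 31-base words, 15.7% are shared with the overlapping gene Gm43312 on the same strand. Ptpn11, which encodes SHP2 and is the most common Noonan syndrome gene, had a log2 difference of -0.019 (95% interval -0.18 to 0.15, adjusted p = 0.926), and Shoc2 one of 0.065 (adjusted p = 0.797).

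Among the 5 kinases that ERK activates, 1 was higher and 4 were lower in mutants, none passed the adjusted threshold in limma, and 1 had an unadjusted p under 0.05. Rps6ka2, which encodes the ribosomal S6 kinase RSK3, was at 969, 1008, 976 and 1002 in mutants and 1097, 1316, 1074, 1143 and 1136 in controls. The groups did not overlap, and control replicate 2 stood above the rest (log2 -0.22, SE 0.073, unadjusted p = 0.0124, adjusted p = 0.143). The difference was -0.26, -0.20 and -0.18 in series A, B and C, while 17.5% of its 31-base words occur in other genes, most of them in Sod2. Mknk2, a kinase of the translation factor eIF4E and the leader of the role per length, was at 520.0, 719, 649.9 and 608 in mutants and 667, 751, 696, 547 and 678 in controls, with overlapping groups (log2 -0.10, SE 0.12, adjusted p = 0.706). Rps6ka1, Rps6ka3 (the Coffin-Lowry syndrome gene) and Mknk1 had log2 differences of -0.055, -0.041 and 0.092, with adjusted p-values of 0.826, 0.883 and 0.590.

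**Figure D5:**
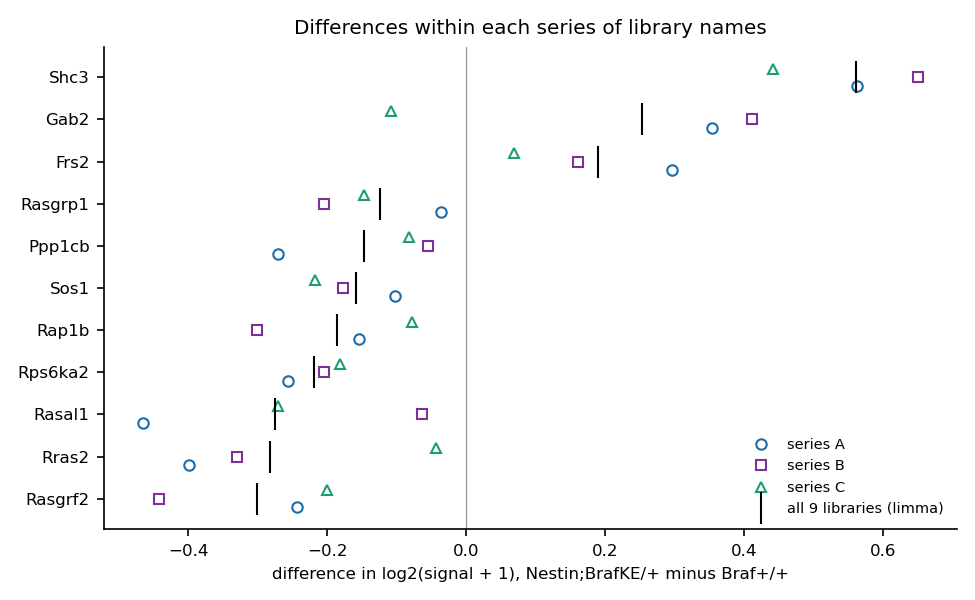
Log2 difference, mutant minus control, within each of the 3 series of library names for the 11 members with an unadjusted p under 0.05 in limma; each symbol is 1 series, vertical ticks are the limma estimates over all 9 libraries, and series C holds 1 library of each genotype. Shc3 is positive and Rasgrf2 negative in every series, while Gab2 is positive in A and B and at -0.11 in C. The genes shown were picked from these same libraries, so like signs across series are no separate evidence.

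The 15 members in which germline variants cause RASopathies cut across these roles. Of these, 7 were higher and 8 lower in mutants, and limma called none at the adjusted threshold. An unadjusted p under 0.05 was reached by 3 (20%, beside 18.5% of all genes tested), all lower (Rras2, Sos1 and Ppp1cb), and 4 had groups that did not overlap (26.7%, beside 15.7%). The 95% interval of every one of the 15 lay within 0.5 of zero on the log2 scale.

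Beyond these 38 genes, a wider list of 112 other genes of RAS-family signalling was counted in the same fit, and 108 of them passed the minimum mean. Of these, 48 were higher and 60 lower in mutants, 9 (8.33%) passed the adjusted threshold, against 2.88% of all genes, and 31 (28.7%) had an unadjusted p under 0.05, against 18.5%. The groups did not overlap in 28 (25.9%), against 15.7% of all genes. The 4 that rose were Rasd1, a dexamethasone-induced RAS-like protein (log2 0.59, adjusted p = 0.0177), Rin1, a RAS effector of forebrain neurons (0.38, 0.0135), Lypla2, a thioesterase that removes palmitate (0.37, 0.0259), and Irs2, an insulin receptor substrate (0.21, 0.0479). Rin1 was at 2083, 2079, 2072 and 1953 in mutants and 1709, 1520.2, 1456, 1526 and 1644 in controls, groups that lay clearly apart. The 5 that fell were Cblb, a ubiquitin ligase related to Cbl (log2 -0.47, adjusted p = 0.0210), Rap1gap2, a GTPase-activating protein of RAP1 (-0.42, 0.0147), the docking protein Dok6 (-0.36, 0.0420), Rapgef2, an exchange factor of RAP1 (-0.23, 0.0478), and the GTPase Rap2a (-0.22, 0.0393). Rap1gap2 was at 2429.6, 2623, 2509 and 2717 in mutants and 3102, 3773, 3644, 3441 and 3246 in controls, with every mutant below every control. All 9 had groups that did not overlap and the same sign in each series, which is no separate evidence, since the calls came from the same libraries. All 9 calls were lost without mutant replicate 1, the only mutant of series A, and without control replicate 4, the only control of series B. Each of these fits takes a whole series out of the genotype difference. So do the fits without mutant replicate 4 or control replicate 5, the libraries of series C. Between 3 and 6 of the 9 calls were kept without any 1 of the other libraries.

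Markers of several cell types moved with the genotype. All 10 oligodendrocyte markers were higher in mutants, 4 of them past the adjusted threshold, and their summed signal was 123803 to 133350 in mutants against 90259 to 109450 in controls. Of 5 oligodendrocyte precursor markers, 4 were higher and 1 was called (sums of 5404 to 6012 against 4328 to 5074), and of 10 astrocyte markers 8 were higher and 3 were called (114009 to 127692 against 106833 to 120540). The excitatory neuron list split, with 5 of 9 higher and 2 called in opposite directions (142069 to 166838 against 131896 to 148849). Choroid plexus markers varied most between libraries, from 1372 to 24210 in mutants and from 4430 to 391030 in controls, with control replicate 2 the highest; 0 of 6 were higher and 0 were called in limma (1 at an unadjusted p under 0.05). Of the remaining lists, 6 of 7 inhibitory neuron, 6 of 7 microglia, 5 of 7 endothelium, 5 of 6 mural cell and 5 of 5 blood markers were higher without a call in limma (2, 2, 0, 1 and 4 at an unadjusted p under 0.05), and of 6 markers of meninges 4 were higher and 1 was called. No marker on any of these lists was at 0 in any library. With the mean oligodendrocyte marker level as a further term, the log2 difference of Shc3 was 0.64 (SE 0.13, adjusted p = 0.363) and that of Rasgrf2 was -0.19 (SE 0.12, adjusted p = 0.853). With the astrocyte level instead they were 0.43 (SE 0.31) and -0.24 (SE 0.29; both adjusted p = 0.998), and under either term limma called no gene of all 16196 at the adjusted threshold, with 1052 and 738 at an unadjusted p under 0.05. Without a marker term the SE was 0.072 for Shc3 and 0.067 for Rasgrf2. Both marker levels themselves moved with the genotype, so these fits cannot tell genotype and marker level apart. The part of these cell types in the differences of the members was not tested.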

How the data were processed

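RNA-seq of bulk hippocampus from 4 Nestin;BrafKE/+ and 5 Braf+/+ male mice was analysed; the human cell data of the study were not analysed here. Per the study's methods and labels, the authors made stranded poly(A) libraries, ran an nf-core pipeline (Trim Galore, STAR on GRCm39 with Gencode vM28, Salmon), adjusted the estimated counts for batch and scaled them with DESeq2 size factors. The deposited values are therefore a normalised signal per gene, in which every value is a whole multiple of 1 step per library (100% of values) but which are not raw counts, so no count test was run. Which libraries formed a batch is not given in the sources used here. The 3 series were set here from the 4 prefixes of the library names, with 84 and 85 joined as series A. Adjusting values before a fit can make p-values too small.

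Genes with a mean of at least 10 were fitted in limma 3.58.1 (R 4.3.3) on log2(signal + 1), genotype plus series, eBayes with trend; the pseudocount of 1 slightly understates changes of low genes. Single genes were also tested by exact permutation. The members, the wider RAS list and the marker lists were chosen with earlier results of these data known. The genes given with every library's value are those with an adjusted or unadjusted p under 0.05 and the leader of each role per length; from the wider list, those with an adjusted p under 0.05, of which Rin1 and Rap1gap2 were given in full after their values were seen. Lengths and coordinates came from Gencode vM39 on GRCm39, where 99.5% of gene IDs were found. Shared 31-base words were counted over all annotated exons. In all, 14 alternatives that keep every library and 9 that leave out 1 were run. Figures were drawn with matplotlib 3.10.9.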

Additional observations from a re-analysis of the deposited data

Results flagged for a closer look

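In 94 groups of 4 or 5 libraries (38 members and the 9 called genes of the wider list, each in mutants and controls), 1 library stood far from the others 7 times (7.45%) by Dixon's 95% criterion, which chance meets in about 1 in 20 groups. Among the exchange factors, Rasgrf2 in mutant replicate 2 was at 1404, against 1585 to 1596 in the other mutants, Sos1 in control replicate 3 was at 1215, against 1296 to 1311, and Sos2 in control replicate 2 was at 843, against 702 to 733. Dab2ip in mutant replicate 2 was at 2617, against 2211 to 2258 in the others. Rit1 in control replicate 4 was at 387, against 463 to 475, and Rps6ka2 in control replicate 2 was at 1316, against 1074 to 1143. In the wider list, Rin1 in mutant replicate 4 was at 1953, against 2072 to 2083. Control replicate 2 is also the library with the highest choroid plexus marker sum, 391030, and the part of that in its values of Sos2 and Rps6ka2 was not tested.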

How the results depend on the processing

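The 2 member calls were kept under a pseudocount of 0.5 or 8, no minimum mean or one of 50, TMM factors, quantile normalisation and robust eBayes. Of the results fitted over all genes, the counts of calls moved with the series term: without it 2260 genes, 9 members and 27 genes of the wider list were called, with 4 name prefixes in its place 165, 1 and 2, and with array quality weights 258, 1 and 5. The 1 member called with the name prefixes, and with array quality weights, was Shc3, and Rasgrf2 was not called. With an oligodendrocyte or an astrocyte marker level as a further term, 0, 0 and 0 were called in limma. At an unadjusted p under 0.05 there were 2 and 1 members, beside 1052 and 738 of all genes. Both levels moved with the genotype, so these fits cannot tell the 2 apart. Leaving out 1 library gave 42 to 371 genes, 0 to 2 members and 0 to 6 of the wider list. The lowest gene count was that without mutant replicate 1 (42), followed by those without control replicate 4 (97) and mutant replicate 3 (169), and 278 genes were called without control replicate 1. Mutant replicate 1 is the only mutant of series A, and control replicate 4 the only control of series B. Without either library, its series adds nothing to the genotype difference in a fit with the series term. Causes beyond this were not tested.

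The labels do not say that a replicate number marks a shared litter or day, and the numbers were not treated as pairs. Correlations of same-numbered deviations from the group means ran from -0.39 to 0.41, and 1 of 4 mutant libraries correlated best with its own number. In these batch-adjusted values every mutant and control pair of 1 series correlated negatively (-0.997 to -0.10), so the check cannot show that pairing is absent. With the replicate block in place of the series, 1405 genes, 4 members (Rasal1, Rasgrf2, Rras2 and Shc3) and 16 of the wider list were called; with the replicate block and the series, 0, 0 and 0 were called in limma (1767 genes, 10 members and 22 of the wider list at an unadjusted p under 0.05), in a fit with few degrees of freedom left.

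Members without a call changed sign in some settings. With the replicate block and the series, the log2 differences that turned were Mras -0.038, Rit1 -0.10, Rap1a 0.0034, Rasgrf1 -0.10, Lztr1 -0.17, Shc1 0.22, Ptpn11 0.13 and Rps6ka3 0.16. With array quality weights they were Rasgrf1 -0.0013, Dab2ip -0.011 and Lztr1 -0.023. With the oligodendrocyte level they were Hras -0.12, Nras 0.0067, Rasgrp2 -0.19, Nf1 -0.0062, Rasa1 0.10, Rasal2 0.17, Dab2ip -0.067, Grb2 0.18, Gab1 -0.12, Gab2 -0.032, Frs3 -0.21 and Rps6ka3 0.0070. With the astrocyte level they were Hras -0.37, Rras2 0.28, Rit1 -0.23, Rit2 -0.12, Rap1b 0.0019, Sos2 0.18, Nf1 -0.16, Rasa1 0.62, Rasal2 0.33, Lztr1 -0.070, Grb2 0.066, Gab1 -0.40, Gab2 -0.67, Frs2 -0.079, Frs3 -0.19, Ppp1cb 0.030, Rps6ka3 0.32, Mknk1 -0.20, Cblb 0.32, Dok6 0.22 and Rapgef2 0.024, the last 3 being called genes of the wider list. Over the fits without 1 library, the sign turned for Hras (-0.079 to 0.13), Nras (-0.033 to 0.013), Mras (-0.035 to 0.16), Rit1 (-0.065 to 0.24), Rasgrf1 (-0.010 to 0.041), Nf1 (-0.0034 to 0.11), Rasa1 (-0.25 to 0.015), Dab2ip (-0.064 to 0.078), Lztr1 (-0.078 to 0.070), Shc1 (-0.14 to 0.052), Ptpn11 (-0.062 to 0.019), Shoc2 (-0.076 to 0.15), Rps6ka1 (-0.16 to 0.052), Rps6ka3 (-0.21 to 0.14) and Mknk2 (-0.32 to 0.12). The original depth is not known from these values, so no limit for low genes can be set from it; the lowest value of any member was 138.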
